A study of Arabidopsis thaliana with 6 samples.

Results

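The genes described here are PYR1 and PYL1 to PYL9, receptors of the plant hormone abscisic acid in Arabidopsis thaliana. They were chosen by locus, isoforms of a locus were summed, and all 10 were found among the 27655 genes of the deposited table. Transcript levels were given as TPM, a length-corrected share of each sample's transcripts, in root tips of 3 sos2-2 and 3 wild-type samples. SOS2 is the protein kinase that, with the calcium sensor SOS3, activates the sodium exchanger SOS1 at the plasma membrane. Per the labels, seedlings of both genotypes were 6 days old and spent 12 hours in liquid medium with 100 mM NaCl before RNA was taken. All samples were therefore on salt, and a difference between the genotypes without salt cannot be told apart from one that arises on salt. The series' design text also names gl1, a mutation of a trichome regulator, but the labels do not say which samples carry it, and GL1 was listed at 0 in all 6 samples. The labels give neither the lesion of the sos2-2 allele nor whether replicates came from separate cultures, so the p-values cover the spread between these libraries only, and part of it may be technical.

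Abscisic acid rises in plants under salt and drought. When it enters the pocket of a PYR/PYL receptor, loops of the protein close over it and form a surface that binds and blocks clade A PP2C phosphatases. This frees SnRK2 kinases, which then activate ABF transcription factors and, through them, stress genes. The family is commonly divided into subfamily III, with PYR1 and PYL1 to PYL3, subfamily II, with PYL4 to PYL6 among the genes described here, and subfamily I, with PYL7 to PYL9. PYR1, PYL1 and PYL2 form homodimers without the hormone, while receptors of the other subfamilies are mostly monomers that bind phosphatases at lower hormone levels. Transcripts of several receptors, PYL4 to PYL6 among them, are known to decline after abscisic acid treatment, and those of most clade A phosphatases to increase. In roots, PYL8 is known for promoting lateral root growth.

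The samples had these features in common and apart. In sos2-2, SOS2 was at 22.0, 10.2 and 14.3 TPM, against 4.98, 5.81 and 5.44 TPM in wild type; with the lesion unknown, this does not check the labels. SOS3 averaged 70.5 ± 0.406 TPM in sos2-2 and 23.0 ± 1.09 TPM in wild type (SD, n = 3 each; limma adjusted p = 2.2e-05), and SOS1 averaged 12.9 ± 1.76 TPM in sos2-2 and 12.5 ± 0.574 TPM in wild type (adjusted p = 0.805). Root tip markers (PLT1, PLT2, WOX5, SCR and SHR) were present in all samples, with 0 of 5 called, and their summed levels were 61.9 to 107 TPM in sos2-2 and 61.0 to 74.4 TPM in wild type. Of all genes tested by the fit described below, 31.3% were called higher in sos2-2 and 34.1% lower. Among markers of other cell types, all 6 of dividing cells fell, 6 of 7 of endodermis fell and 1 rose, and 4 of 6 of root hairs fell and 1 rose. Their summed levels in sos2-2 were 24.3 to 42.0, 137 to 359 and 382 to 504 TPM, against 120.2 to 178, 695 to 888 and 1560 to 2011 TPM in wild type. Of root cap markers 2 of 4 rose and 1 fell, of phloem and xylem markers 2 of 5 rose and 1 fell, and of shoot and photosynthesis markers 1 of 3 tested rose and 1 fell. The shares called in these 3 lists were near the 65.4% of all genes tested that were called in either direction. Of these markers, SMB and BRN2 of the root cap were 1.84-fold and 1.66-fold higher in sos2-2, APL of phloem 3.26-fold and VND6 of xylem 6.58-fold. FEZ of the root cap was 4.65-fold lower in sos2-2, and AGL12 of the phloem and xylem list 2.01-fold lower. BRN1 of the root cap and VND7 of xylem were 1.26-fold and 1.46-fold lower in sos2-2, and SUC2 of phloem 1.37-fold higher, none of them called. The summed levels of these 3 lists in sos2-2 were 42.4 to 44.8, 58.4 to 75.7 and 56.6 to 67.9 TPM, against 32.0 to 37.0, 43.3 to 58.5 and 52.9 to 70.2 TPM in wild type. Markers of dividing cells, endodermis and root hairs thus mostly fell, while those of these 3 lists moved in both directions. The part of any marker list in the receptor results was not tested. In RNA of a whole root tip, fewer cells of a type and less RNA per cell cannot be told apart. Wild-type replicate 1 stood apart in genes of the abscisic acid response, whose 19 summed members had 1580.0 TPM there, against 3079 and 2783 TPM in the other wild-type samples. Where leaving it out changed the count called in a pathway list, or the call of a receptor or pathway gene named here, both values are given. Marker lists were not recounted without it.

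Of the 10 receptors, 9 had a mean of at least 1 TPM and were tested in a fit over all 19527 such genes (limma on log2(TPM + 1), Benjamini-Hochberg adjusted over all of them, called at an adjusted p under 0.05). Higher levels in sos2-2 were called for 6 of the 9, PYR1, PYL4, PYL5, PYL6, PYL7 and PYL9, where 31.3% of all genes tested were called higher. PYL2 was the 1 receptor called lower, where 34.1% of all genes were called lower. PYL1 and PYL8 were not called. The median log2 fold change of the 9, sos2-2 minus wild type, was 0.64, beside -0.05 for all genes tested. In either direction 7 of 9 receptors were called against a background of 65.4%, so the number of receptors that differed is close to that of genes at large. A log2 fold change of at least 1 with a call was reached by 3 of the 9, PYL4, PYL5 and PYL6, and by 16.3% of all genes tested. All sos2-2 values lay on 1 side of all wild-type values for 7 of the 9 receptors, and for 72.1% of all genes tested.

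**Figure D1:**
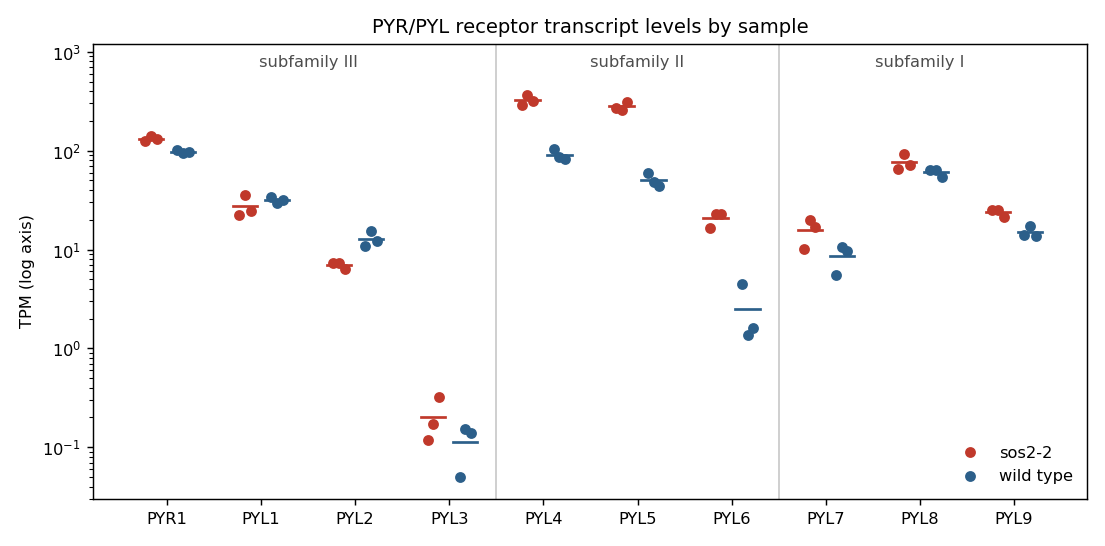
TPM of each receptor in each sample on a log axis, 3 points per genotype with a line at the mean, sos2-2 left of wild type. PYL4, PYL5 and PYL6 sit well above wild type in sos2-2, at means of 323, 279.9 and 20.8 TPM, against 90.7, 50.7 and 2.49 TPM, while PYL3 reaches at most 0.321 TPM in any sample.

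Subfamily II held the receptors with the largest differences, and all 3 of its members described here rose. PYL4 (AT2G38310) had 287, 364 and 319 TPM in sos2-2, against 104, 86.6 and 81.6 TPM in wild type. All 3 sos2-2 samples lay far above all wild-type samples. Its log2 fold change was 1.82 (SE 0.14, adjusted p = 4.9e-05), a 3.56-fold higher mean. PYL5 (AT5G05440) had 269, 259.7 and 311 TPM in sos2-2, against 59.5, 48.4 and 44.2 TPM in wild type. The groups lay far apart, with a 5.52-fold higher mean in sos2-2 and a log2 fold change of 2.45 (SE 0.15, adjusted p = 1.8e-05). PYL6 (AT2G40330), a low-level receptor in wild type, had 16.6, 22.9 and 22.7 TPM in sos2-2, against 4.48, 1.38 and 1.60 TPM in wild type. The sos2-2 values were close together, while wild-type replicate 1 stood above the other wild-type samples. The mean of PYL6 was 8.35-fold higher in sos2-2, with a log2 fold change of 2.73 (SE 0.32, adjusted p = 0.00029). Without wild-type replicate 1 it was 13.9-fold higher (log2 fold change 3.11, SE 0.20, adjusted p = 9.3e-05). Of all genes tested, 2.84% had a larger log2 fold change than PYL6, 3.73% than PYL5 and 6.83% than PYL4. Among wild-type samples PYL4, PYL5 and PYL6 were highest in replicate 1, the one with the lowest summed level of response genes, as were PYR1 and PYL1. PYL2, PYL3, PYL7, PYL8 and PYL9 were highest in wild-type replicate 2.

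The 250 bases upstream of the annotated start of PYL4, PYL5 and PYL6 are shown because these genes rose together, beside those of PYL2, which fell. They were read from the TAIR10.1 reference of RefSeq, 5′ to 3′ on the strand of the gene, at chr2:16049668-16049917 on the plus strand for PYL4, chr5:1608738-1608987 on the plus strand for PYL5, chr2:16846195-16846444 on the minus strand for PYL6 and chr2:11095543-11095792 on the minus strand for PYL2. Capitals mark a match, on either strand, to any of the motifs searched.
PYL4: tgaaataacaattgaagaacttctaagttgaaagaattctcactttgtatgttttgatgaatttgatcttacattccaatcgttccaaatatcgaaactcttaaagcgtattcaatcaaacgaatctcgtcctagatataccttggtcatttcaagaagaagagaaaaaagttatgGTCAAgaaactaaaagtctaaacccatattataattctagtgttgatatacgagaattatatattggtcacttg
PYL5: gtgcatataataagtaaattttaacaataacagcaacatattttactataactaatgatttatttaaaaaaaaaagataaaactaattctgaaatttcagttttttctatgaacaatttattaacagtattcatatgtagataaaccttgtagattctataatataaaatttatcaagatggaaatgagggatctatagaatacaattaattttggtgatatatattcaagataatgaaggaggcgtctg
PYL6: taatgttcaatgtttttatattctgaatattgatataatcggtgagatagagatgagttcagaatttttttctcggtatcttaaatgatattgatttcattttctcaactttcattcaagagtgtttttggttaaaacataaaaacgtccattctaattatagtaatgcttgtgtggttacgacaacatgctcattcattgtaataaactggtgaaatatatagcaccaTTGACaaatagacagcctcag
PYL2: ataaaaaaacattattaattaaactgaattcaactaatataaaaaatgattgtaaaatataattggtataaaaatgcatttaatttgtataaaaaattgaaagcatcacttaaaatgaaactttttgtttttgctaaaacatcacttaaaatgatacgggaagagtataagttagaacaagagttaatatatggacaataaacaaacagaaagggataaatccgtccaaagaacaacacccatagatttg
The motifs searched were ACGTG, the core of the abscisic acid response element; CACGTG, the G-box, which contains it; CCGAC, the core of the dehydration response element; TTGAC, the core of the W-box; and TGTCTC, the auxin response element. PYL4 had 1 TTGAC, which starts 74 bases before the gene, and PYL6 had 1, which starts 21 bases before it. PYL7 also had 1, so that TTGAC was found upstream of 3 of the 10 receptors. PYL5 and PYL2 had none of the motifs in this window. Of all 27437 nuclear protein-coding genes with a full window, 44.9% held TTGAC and 22.9% held ACGTG. The motif ACGTG was found upstream of PYR1, PYL3 and PYL7, 3 of the 10 receptors, and PYL7 also held the G-box, which 6.49% of all windows hold. CCGAC and TGTCTC were found in none of the 10 windows, against 12.0% and 10.9% of all windows. These matches describe the letters of a short window only.

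The subfamily III receptors, whose best known members are dimeric, went different ways. PYR1 (AT4G17870), the receptor found through the synthetic compound pyrabactin, had 125, 141 and 130.4 TPM in sos2-2, against 102, 93.9 and 95.9 TPM in wild type. The groups did not overlap, but the difference was small, at a log2 fold change of 0.44 (SE 0.11, 95% interval 0.18 to 0.69, adjusted p = 0.0088). PYL2 (AT2G26040) had 7.39, 7.37 and 6.30 TPM in sos2-2, against 10.9, 15.6 and 12.2 TPM in wild type. All its sos2-2 values were below all wild-type values, and it fell by 0.78 on the log2 scale (SE 0.16, adjusted p = 0.0036), a 1.84-fold lower mean. PYL1 (AT5G46790), the closest relative of PYR1 by coding sequence, had 22.2, 35.5 and 24.6 TPM in sos2-2, against 34.1, 29.6 and 31.3 TPM in wild type. The groups overlapped because sos2-2 replicate 2 lay above all wild-type samples, and the log2 fold change was -0.23 (95% interval -0.65 to 0.19, adjusted p = 0.293). Without that sample PYL1 was called lower (log2 fold change -0.42, adjusted p = 0.0199). PYL3 (AT1G73000) had 0.119, 0.17 and 0.321 TPM in sos2-2, against 0.0498, 0.152 and 0.139 TPM in wild type, and was too low to be tested.

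Subfamily I showed smaller differences. PYL9 (AT1G01360) had 25.3, 25.1 and 21.2 TPM in sos2-2, against 14.0, 17.2 and 13.6 TPM in wild type, a log2 fold change of 0.64 (SE 0.14, adjusted p = 0.0044). Its groups did not overlap. PYL7 (AT4G01026) had 10.11, 20.1 and 17.0 TPM in sos2-2, against 5.49, 10.7 and 9.60 TPM in wild type. These groups overlapped, and the call was at the threshold (log2 fold change 0.80, SE 0.30, adjusted p = 0.0494). It was lost without sos2-2 replicate 2 or 3 or any wild-type sample (adjusted p = 0.0508 to 0.137), and kept without sos2-2 replicate 1 (0.0081). The annotated transcript of PYL7 overlaps that of AT4G01030, a gene on the opposite strand, on the chromosome, and 45.0% of the 31-base words of PYL7 recur in other transcripts, nearly all in that of AT4G01030. No source used here says whether the counting used strand, so the values of PYL7 are uncertain. AT4G01030 was at 0.0697 to 0.657 TPM in sos2-2 and 0.22 to 0.372 TPM in wild type. PYL8 (AT5G53160), the lateral root receptor, had 64.9, 93.4 and 71.4 TPM in sos2-2, against 63.0, 64.5 and 54.4 TPM in wild type. The groups did not overlap but nearly touched, and PYL8 was not called (log2 fold change 0.32, 95% interval -0.05 to 0.69, adjusted p = 0.112). Without sos2-2 replicate 1 PYL8 was called higher (log2 fold change 0.43, adjusted p = 0.0408).

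**Figure D2:**
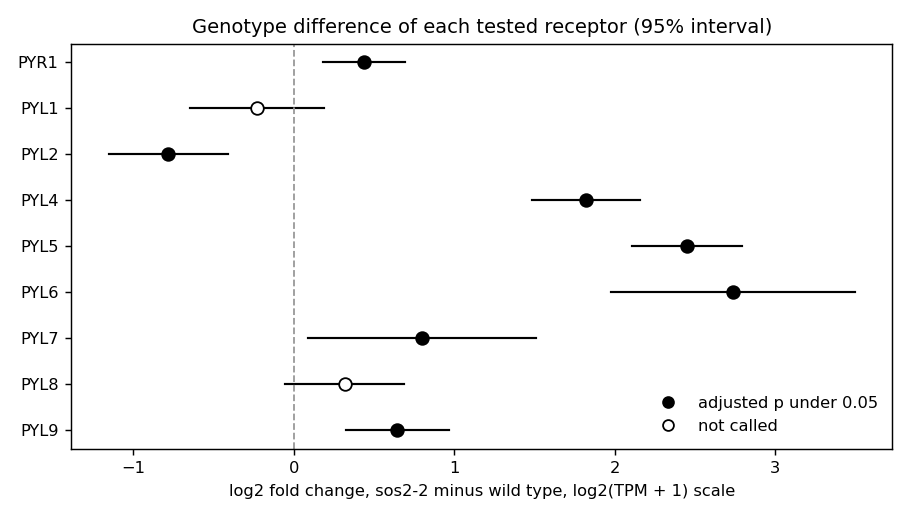
Log2 fold change of the 9 tested receptors, sos2-2 minus wild type on the log2(TPM + 1) scale, with 95% intervals; filled points had an adjusted p under 0.05. PYL4, PYL5 and PYL6 stand at 1.82 to 2.73, the other receptors at -0.78 to 0.80, and the intervals of PYL1 and PYL8 include 0.

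Isoforms added little to this picture. Of the 10 loci, 8 had a single isoform in the table. PYL8 had 2 isoforms, and in sos2-2 the isoform AT5G53160.1 held 40.4, 41.6 and 42.5% of its TPM, against 42.7, 43.2 and 30.2% in wild type. The groups overlapped in this share, and wild-type replicate 3 was the lowest. Fitted on its own among 27461 isoforms, of which 50.8% were called, AT5G53160.1 had an adjusted p = 0.171 and AT5G53160.2 an adjusted p = 0.192. PYL1 also had 2 isoforms, of which AT5G46790.1 was listed at 0 in all 6 samples, so that AT5G46790.2 carried the whole value.

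The order of the receptors by level differed between the genotypes. In sos2-2 PYL4 and PYL5 led and overlapped each other, followed by PYR1 at 132 ± 8.41 TPM and PYL8 at 76.6 ± 14.9 TPM, each apart from its neighbours. PYL1, PYL9, PYL6 and PYL7 followed in that order, each overlapping the next, and PYL2 and PYL3 came last and apart. In wild type PYR1, at 97.3 ± 4.30 TPM, and PYL4, at 90.7 ± 11.7 TPM, led and overlapped each other. PYL8 and PYL5 came next and overlapped, at 60.7 ± 5.43 and 50.7 ± 7.88 TPM. PYL1 followed, apart from its neighbours, then PYL9 and PYL2, which overlapped, then PYL7, PYL6 and PYL3, each apart. PYL6 held rank 7 of 10 in sos2-2 and rank 9 in wild type, and PYL2 rank 9 in sos2-2 and rank 7 in wild type. Relative to its mean, the spread among sos2-2 replicates was widest for PYL3 and then PYL7 (coefficients of variation of 51.7 and 32.4%), and that among wild-type replicates for PYL6 and then PYL3 (69.6 and 48.9%).

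The 10 receptors together had 827, 969.8 and 924 TPM in sos2-2, against 398, 368 and 345 TPM in wild type, a 2.45-fold higher sum. PYL4, PYL5 and PYL6 accounted for most of the difference, with 572, 647 and 653 TPM in sos2-2, against 168, 136 and 127 TPM in wild type. The other 7 receptors summed to 255, 323 and 271 TPM in sos2-2, against 229.7, 232 and 217 TPM in wild type. Subfamily II thus held 69.2, 66.7 and 70.6% of the receptor transcripts in sos2-2, against 42.2, 37.1 and 37.0% in wild type. The share of subfamily III was 18.7, 19.02 and 17.5% in sos2-2, against 37.0, 37.8 and 40.5% in wild type. PYR1 alone held 14.6 ± 0.492% of the sum in sos2-2 and 26.4 ± 1.30% in wild type (SD, n = 3 each), although its own level was higher in sos2-2. PYL8 held 8.40 ± 1.06% in sos2-2 and 16.4 ± 0.978% in wild type. No test was made on these sums and shares, which rest on the same values as the single receptors.

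**Figure D3:**
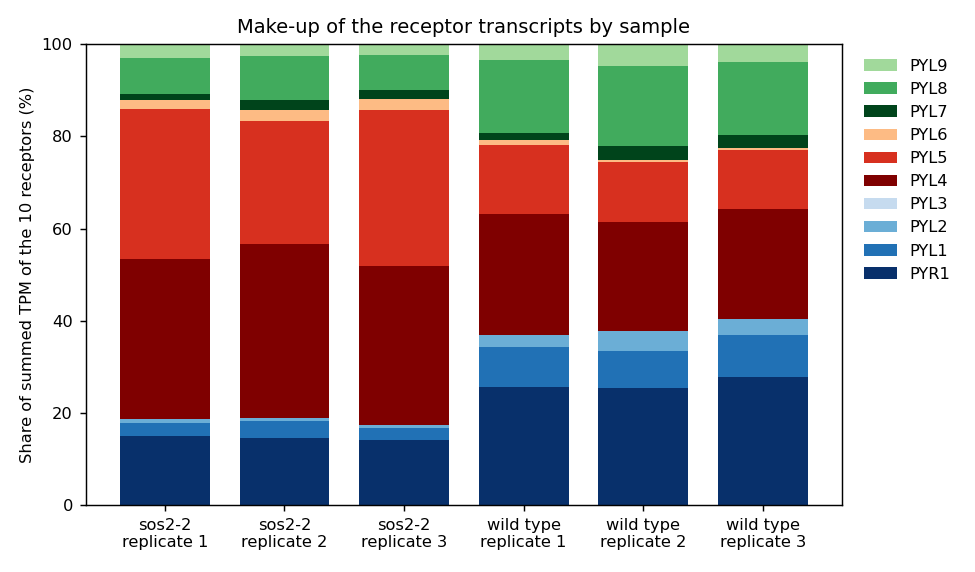
Share of each receptor in the summed TPM of the 10 receptors, one stacked bar per sample, blue for subfamily III, red for subfamily II and green for subfamily I. Subfamily II takes 66.7 to 70.6% in the sos2-2 samples and 37.0 to 42.2% in the wild-type samples.

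The receptor genes shared little sequence that could blur their values. Among the 10, identity of the coding sequences ranged from 57.6% (PYL5 with PYL7) to 80.3% (PYL7 with PYL9), and was 75.2% between PYR1 and PYL1. PYL4, PYL5 and PYL6 were 67.7 to 69.8% identical to each other. The annotated transcripts of 8 of the 10 had no 31-base word in common with a transcript of another locus, PYL9 shared 4 of 1149 such words with PYL7, and PYL7 shared 545 of 1210, nearly all with AT4G01030. In TAIR10.1, PYL7, PYL8 and PYL9 have 3 coding exons each, and the other 7 receptors have 1. PYL4 and PYL6 lie on chromosome 2 at 16049918 to 16051356 and 16844588 to 16846194, and PYL5 lies on chromosome 5 at 1608988 to 1610527, so the receptors that rose most are not a cluster of neighbours.

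Of the other 4 genes of the family, PYL11 (AT5G45860), also of subfamily II, was the 1 that could be tested. PYL11 had 2.23, 9.08 and 2.64 TPM in sos2-2, against 0.235, 0.32 and 0.219 TPM in wild type, with no overlap (log2 fold change 1.97, SE 0.41, adjusted p = 0.0044). The mean of PYL11 was 18.0-fold higher in sos2-2, or 9.43-fold without sos2-2 replicate 2, the highest sample. PYL10, PYL12 and PYL13 were at 2.22 TPM or less in every sample, and PYL10 and PYL13 were listed at 0 in all 3 wild-type libraries.

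The clade A PP2C phosphatases, which the receptors block, did not move as a group. Of 8 tested, ABI2 rose, HAI1 fell and 6 were not called, with a median log2 fold change of 0.07. Of all genes tested, 65.4% were called in either direction. ABI1, the most abundant of them, had 77.5, 159 and 139 TPM in sos2-2, against 91.0, 140.2 and 134 TPM in wild type (adjusted p = 0.998). ABI2 had 24.3, 21.2 and 30.1 TPM in sos2-2, against 7.09, 14.8 and 12.6 TPM in wild type, a log2 fold change of 1.11 (adjusted p = 0.00695). HAI1 had 1.29, 2.51 and 2.12 TPM in sos2-2, against 4.90, 31.2 and 28.6 TPM in wild type, a log2 fold change of -2.60 (adjusted p = 0.00755). Wild-type replicate 1 lay far below the other wild-type samples for HAI1, whose log2 fold change was -3.40 without it. Without that sample 3 of the 8 phosphatases were called lower, HAI1, HAI3 and HAB1 (adjusted p = 0.000105, 0.000831 and 0.0036). PP2CA averaged 57.8 ± 8.74 TPM in sos2-2 and 41.3 ± 9.77 TPM in wild type and was not called (adjusted p = 0.0612), nor was HAB2, at 35.6 ± 10.9 TPM in sos2-2 and 27.8 ± 3.01 TPM in wild type (adjusted p = 0.233). HAB2 was called higher without sos2-2 replicate 2 (log2 fold change 0.50, adjusted p = 0.0452), and PP2CA with trimmed-mean scaling (log2 fold change 0.53, adjusted p = 0.0465). HAI2 averaged 1.02 ± 0.137 TPM in sos2-2 and 0.984 ± 0.832 TPM in wild type (adjusted p = 0.757). AHG1 was too low to be tested and was listed at 0, 0 and 0.0484 TPM in sos2-2, against 0.24, 1.06 and 1.11 TPM in wild type. The summed phosphatases had 239.97, 281 and 279.9 TPM in sos2-2, against 177, 311 and 291 TPM in wild type, and overlapped. Per TPM of phosphatase there were 3.45, 3.45 and 3.30 TPM of receptor in sos2-2, against 2.25, 1.18 and 1.18 in wild type. This ratio was even across sos2-2 samples and highest, within wild type, in replicate 1; it was not tested.

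The 3 SnRK2 kinases of the abscisic acid pathway were each called, in different directions, where 65.4% of all genes tested were called. SNRK2.3 rose, to 55.2 ± 4.89 TPM in sos2-2, against 22.4 ± 2.48 TPM in wild type (log2 fold change 1.27, adjusted p = 0.000122). OST1, the kinase of stomatal closure, had 6.17, 6.47 and 5.30 TPM in sos2-2, against 9.24, 17.5 and 14.6 TPM in wild type, and was called lower (log2 fold change -1.04, adjusted p = 0.00454). SNRK2.2 fell slightly, to 71.9 ± 4.89 TPM in sos2-2, against 93.6 ± 4.42 TPM in wild type (adjusted p = 0.0175), a call lost without the third replicate of either genotype (adjusted p = 0.056 without that of sos2-2 and 0.0811 without that of wild type). The 3 kinases summed to 132 to 134 TPM in sos2-2 and 119 to 139 TPM in wild type.

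**Figure D4:**
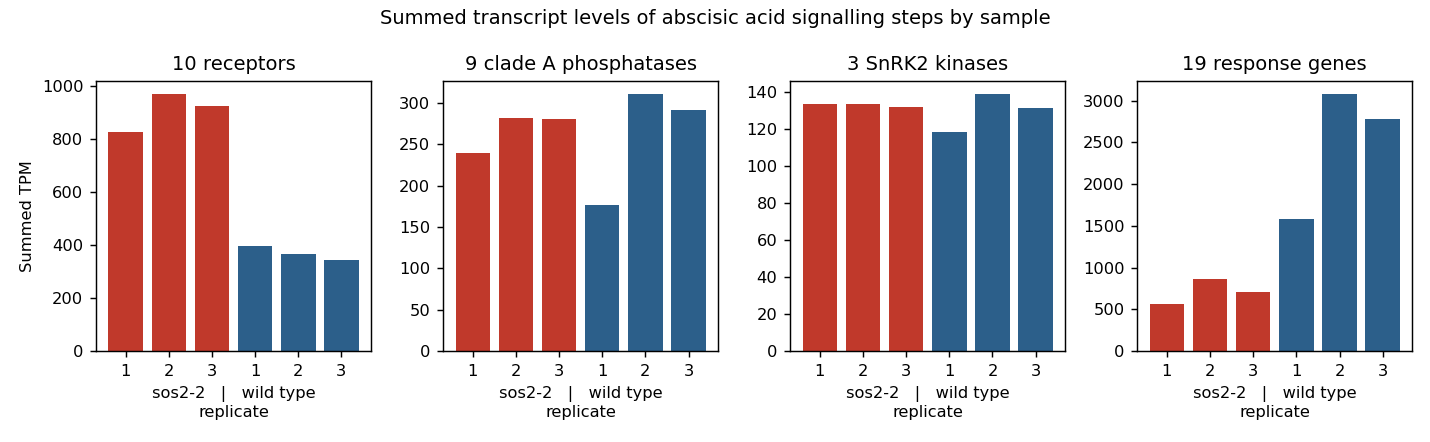
Summed TPM per sample of the 10 receptors, the 9 clade A phosphatases, the 3 SnRK2 kinases and 19 response genes, one bar per sample, sos2-2 left of wild type, with each axis starting at 0. The receptors are higher in every sos2-2 sample, and the phosphatases and kinases overlap between genotypes. The response genes, whose sum in wild type is mostly KIN1 and KIN2, are lower in every sos2-2 sample.

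Further along the pathway, the transcription factor list had 1 gene higher and 2 lower of 5 tested (median log2 fold change -0.41). ABF4 rose to 49.8 ± 4.32 TPM in sos2-2, against 26.9 ± 1.76 TPM in wild type (adjusted p = 0.00046), and ABF3 fell to 28.7 ± 2.86 TPM in sos2-2, against 51.1 ± 12.8 TPM in wild type (adjusted p = 0.0093). Among 17 response genes tested 3 rose and 6 fell, with a median log2 fold change of -0.68. Of all genes tested 31.3% were called higher and 34.1% lower, so the part that fell was near that share. Without wild-type replicate 1, 2 response genes rose and 9 fell, with a median of -1.23. In that fit 5500 of all 19499 genes tested were called higher and 6029 lower. KIN1 and KIN2, genes induced by cold and abscisic acid, had 85.3, 195.8 and 129 TPM and 61.1, 141 and 71.9 TPM in sos2-2, against 669, 1225 and 1080.4 TPM and 539, 956 and 872 TPM in wild type. Both fell (log2 fold changes -2.89 and -3.15, adjusted p = 0.000267 and 0.000203), and since they are close copies of each other, their separate values are uncertain. They made up most of the summed response genes in wild type, but not in sos2-2. Without KIN1 and KIN2, a choice made after seeing the data, the sum was 425, 533 and 513 TPM in sos2-2, against 372, 898.5 and 831 TPM in wild type. These groups overlapped, and wild-type replicate 1 lay below every sos2-2 sample.

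Genes that set the amount of the hormone came next. In the synthesis list 2 of 6 tested rose and 3 fell (median log2 fold change -0.63), shares near the 31.3% higher and 34.1% lower of all genes tested. ABA3, which makes the cofactor of the last step, rose to 18.7 ± 2.08 TPM in sos2-2, against 9.56 ± 1.14 TPM in wild type (adjusted p = 0.00093). ABA4, of the carotenoid steps, fell to 10.3 ± 1.43 TPM in sos2-2, against 21.8 ± 3.37 TPM in wild type (adjusted p = 0.00101). All 3 tested genes of breakdown and conjugation rose. They include CYP707A3, a hydroxylase that inactivates the hormone, with 184, 106 and 145 TPM in sos2-2, against 25.8, 35.3 and 30.5 TPM in wild type (adjusted p = 0.000119). UGT71C5, which attaches glucose to the hormone, rose to 34.8 ± 1.80 TPM in sos2-2, against 24.1 ± 1.11 TPM in wild type (adjusted p = 0.00355). Among 5 transport genes 2 rose and 0 fell. NRT1:2, a nitrate transporter also known to import abscisic acid, had 127, 125 and 141 TPM in sos2-2, against 32.6, 32.5 and 33.2 TPM in wild type (adjusted p = 1.15e-05). Without wild-type replicate 1, 2 synthesis genes rose and 4 fell, and 2 transport genes rose and 1 fell.

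Proteins that act on the receptors or bind them were described by the same fit. It called 31.3% of all genes tested higher in sos2-2 and 34.1% lower. In the list of receptor turnover and receptor kinases, 2 of 14 tested genes rose and 5 fell (median log2 fold change -0.13), or 4 fell without wild-type replicate 1. The genes with the smallest p were AT3G17410 and AT3G03940, both annotated as protein kinases. AT3G17410 was at 189 ± 26.7 TPM in sos2-2 and 80.7 ± 7.95 TPM in wild type, and AT3G03940 at 15.6 ± 1.98 TPM in sos2-2 and 28.0 ± 3.16 TPM in wild type (adjusted p = 0.000247 and 0.00166). Of 5 tested receptor partners 4 rose and 1 fell, with a median log2 fold change of 3.35, and 3 rose without wild-type replicate 1. Among them are the MYB factors that PYL8 is known to bind in roots. MYB77 had 422, 239 and 396 TPM in sos2-2, against 6.55, 9.67 and 8.48 TPM in wild type (log2 fold change 5.23, adjusted p = 7.66e-06). MYB44 had 869.7, 849 and 1123 TPM in sos2-2, against 83.3, 92.2 and 84.8 TPM in wild type (log2 fold change 3.42, adjusted p = 5.68e-06). These partners differed by far more than PYL8 itself, whose mean was 1.26-fold higher in sos2-2.

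**Figure D5:**
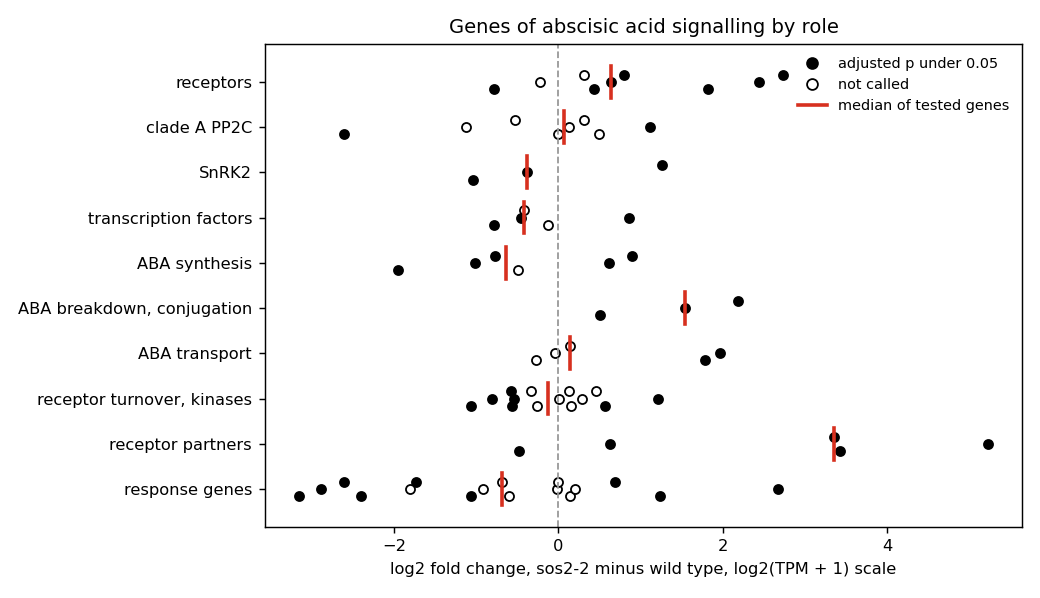
Log2 fold change of each tested gene of abscisic acid signalling by role, sos2-2 minus wild type on the log2(TPM + 1) scale; filled points had an adjusted p under 0.05 and the red bar is the median of the list. Receptors run from -0.78 to 2.73, breakdown and conjugation genes all lie above 0, and the response genes have a median of -0.68.

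By likeness over the 6 samples, the pathway genes closest to PYL6, the receptor with the largest rise, were PYL4, PYR1 and PYL5 (Pearson's r of log2(TPM + 1) of 0.984, 0.980 and 0.978). Those closest to PYL2, the receptor that fell, were OST1, HVA22D and KIN2 (r of 0.978, 0.952 and 0.948). HVA22D, a gene induced by abscisic acid, had 88.0, 107 and 83.6 TPM in sos2-2, against 151, 216 and 226 TPM in wild type. The samples form 2 groups by genotype, so any pair of genes that differ between genotypes in the same direction has a high r, and the values are a description only.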

How the data were processed

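Values were taken from the deposited table, in which the authors give TPM for 48359 transcript isoforms in 6 samples; the total is 1000000 in every sample. Per the submitters' processing notes, TAIR10, sleuth 0.30.0 and kallisto 0.46.2 were used, and what each was used for is not stated. No source used here gives the annotation release, filters or strand setting. Depth is unknown from such values, and no counting interval is given. No column of another sample was present (0).

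Isoforms were summed to 27655 genes. Differences, sos2-2 minus wild type, were fitted to log2(TPM + 1) by limma 3.58.1 (R 4.3.3) with trend and robust moderation and no covariate, over the 19527 genes whose mean reached 1 TPM; p-values were Benjamini-Hochberg adjusted over all of them. Fold changes on this scale understate those of low genes. The fit was also run on simulated data in which only a small part of the genes changed. Most genes tested here were called, so that run does not show how the fit performs at such a share. Ratios are of mean TPM, and ± is an SD of 3 samples.

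The receptors and the gene lists were chosen with earlier results of these data known. Of 139 entries in 19 lists, 127 carry the listed name in the reference; of the others, those printed are named by locus. Named genes are all receptors, phosphatases and SnRK2 kinases of the pathway, SOS1 to SOS3, GL1, PYL10 to PYL13, in each pathway list the 2 called genes with the smallest p where at least 3 were called (otherwise 1), and the 3 genes most like PYL6 and PYL2. Phosphatases are given again where another setting or a sample left out changed their call; the markers named were picked after their values were seen. Gene models and upstream windows come from RefSeq's TAIR10.1; the deposited table holds no coordinates. A comparison of proteins was planned, and coding sequences were used in its place.

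Same-numbered samples of the genotypes were not treated as pairs. Alternatives changed the filter, pseudocount and scaling, left out each sample, weighted samples with limma's gene-by-gene weights, fitted isoforms on their own, or added the replicate number. Trimmed-mean scaling factors were computed directly from their published definition. Python 3.11.15 was used for tables and figures.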

Additional observations from a re-analysis of the deposited data

How the results depend on the processing

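The number of receptors called higher was 6, and 5 to 7 under the other settings and samples left out. PYL4, PYL5, PYL6, PYR1 and PYL9 were called higher, and PYL2 lower, under every setting and sample left out. The number called lower was 1, and 2 with sample weights, which added PYL1; leaving out a sample gave 1 to 2. PYL7 lost its call with no filter (adjusted p = 0.0712), a pseudocount of 0.1 (0.05003), quantile normalization (0.0501), or as 1 of all isoforms (0.0677). It also lost it after AT2G01021 was left out and the samples rescaled (0.0511), an alternative chosen after seeing the data because that locus held 0.191 to 3.66% of TPM in sos2-2 and 1.44 to 5.55% in wild type. PYL8 was called with sample weights (0.0143). HAB1 was called lower with quantile normalization (0.0461) and sample weights (0.0315), and HAI3 with sample weights (0.0256). The number of all genes called was 12780, and 10658 to 12898 with a sample left out.

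Some genes that were never called changed sign. ABI1, at a log2 fold change of 0.00, was at -0.064 with quantile normalization, -0.021 without AT2G01021, and -0.20 to 0.31 with a sample left out. HAI2 was at -0.044 with sample weights and -0.29 to 0.19 without wild-type or sos2-2 replicate 1, while its mean was under the filter without any of the other 4 samples. SOS1 was at -0.018 with quantile normalization and -0.020 to 0.15 with a sample left out.

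The correlations of same-numbered deviations from the group means were 0.177, 0.0505 and 0.0575. Those of differently numbered samples ran from -0.197 to 0.182. With 3 samples per group, these values cannot decide whether the replicate numbers pair the samples. With a replicate block 6 receptors were called higher and 1 lower, of 12547 genes called in all, and PYL7 had an adjusted p = 0.0025. TPM holds no depth, so what depth limits could not be assessed; PYL3, PYL10, PYL12 and PYL13 were too low to test. No count test was run, since TPM are not counts.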
